A study of Nothobranchius furzeri with 20 samples.

Results

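The 60 genes described here had lower transcript levels in the brain of exercised than of unexercised 9-week turquoise killifish, and lower levels in one block of 27-week libraries than in the other. They are 60 of 26739 genes in the deposited count table. They were chosen from the 18153 genes that averaged 1 CPM or more over all 20 libraries, where CPM is the count of a gene scaled to the same total in every library. Levels were set on the scale log2(CPM + 0.5). For each gene a gap at 9 weeks was taken as its lowest level in the unexercised libraries minus its highest level in the exercised ones. A gap at 27 weeks was taken as the lowest level in 27-week replicates 6, 7, 9 and 10 minus the highest level in replicates 1 to 5. The score of a gene is the smaller of its 2 gaps, and the members are the 60 genes with the highest scores, numbered here by rank from 1. The members were thus picked by the values of these libraries, and their differences between unexercised and exercised fish and between the blocks of 27-week libraries are given as descriptions, from which nothing is concluded.

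RNA-seq was done on the brain of male fish of the strain MZM-04/10p. The groups were 5 libraries of 9-week fish without exercise, 5 of 9-week fish exercised in a swim tunnel and 10 of 27-week fish, all 10 labelled with the swim tunnel. The numbers in the 27-week titles were split into a first run (replicates 1 to 5) and a second run (replicates 6 to 10), at a break in the numbering. Breaks also occur within the unexercised 9-week group and within the second run, so a break alone does not define a run. All comparisons with 27 weeks rest on the swim-tunnel label, and whether it holds for both runs was not tested. No label says what these numbers stand for. Where exercise and age follow the numbers, they cannot be told apart from whatever the numbers stand for, since each 9-week group also has its own range of numbers. Neither the duration of exercise nor the time of sampling is given, and an unexercised 27-week group was not analysed here.

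Nothobranchius furzeri is an annual fish of seasonal African ponds that matures and ages within months and is used as a vertebrate model of ageing. In its ageing brain, as in that of mammals, glial and inflammatory transcripts are known to increase and neurogenesis to decline. Voluntary or forced activity is studied as a way to alter that course, and transcripts of the brain also vary with feeding, stress, light and time of day. The files pair the gene identifiers with no names, and 0 of them matched the RefSeq table of this species. The functions of the members, the brain markers and any list of clock, stress or activity genes were therefore not analysed here. In bulk tissue, fewer cells of a type and less RNA per cell cannot be told apart.

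Libraries held 15048627 to 34843199 counts and 21440 to 22032 genes with a count. Replicate 8 of the 27-week group stood apart. Its TMM scaling factor, which corrects for a few genes taking a large share of the counts, was 0.716, against 0.990 to 1.05 in the others, and the rule left it out. The labels do not say that each library is a different fish, and the p-values cover no more than the variation among the libraries.

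The 60 scores ran from 0.90 down to -0.03. The libraries did not overlap in either comparison for 41 members, while the other 19 had a score at or below 0. The gap at 9 weeks was at or below 0 in 18 members and the gap at 27 weeks in 4. Just inside the limit, the member of rank 60 had a score of -0.0283. It averaged 12.5 CPM in unexercised and 9.90 CPM in exercised 9-week libraries, 13.3 CPM in the second run and 9.48 CPM in the first. Just outside, the gene of rank 61 had a score of -0.0296, with 209 CPM in unexercised and 194 CPM in exercised libraries, 198 CPM in the second run and 156 CPM in the first.

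Of the 18153 genes, 170 (0.936%) had a gap above 0 at 9 weeks and 1151 (6.34%) at 27 weeks. The 41 genes with both gaps above 0 were 24.1% of the former and 3.56% of the latter. In the mirror direction, with exercised libraries and the first run high, 112 genes were apart in both comparisons, out of 377 at 9 weeks and 1624 at 27 weeks. The crossed combinations held 0 genes with unexercised libraries and the first run high, and 5 with exercised libraries and the second run high. The 9-week and 27-week comparisons share no library. These counts are part of what the rule selects, and no chance level was set for them.

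**Figure D1:**
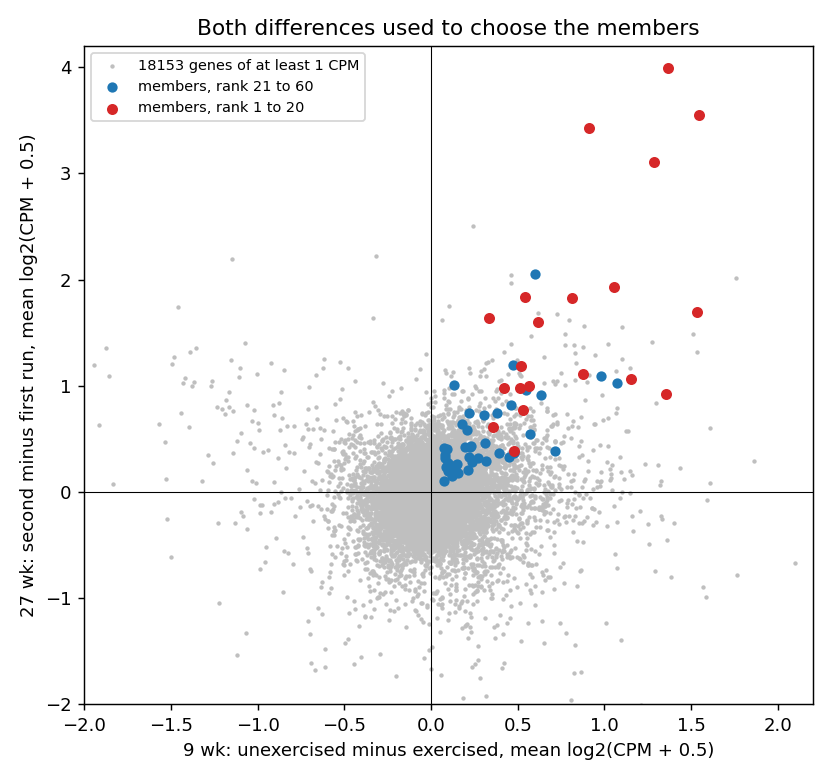
Difference in mean log2(CPM + 0.5) between unexercised and exercised 9-week libraries (x axis) and between the second and the first run of 27-week libraries without replicate 8 (y axis), for 18153 genes (grey) and the members of rank 1 to 20 (red) and 21 to 60 (blue). Members lie in the upper right because the rule put them there, most of those of rank 21 to 60 close to the cloud of all genes, and 20 of the 18153 genes lie outside the axes.

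The sizes of the differences varied widely within the list. One member, Nfu_g_1_018552 (rank 39, named after its values were seen), had 0 to 12 counts in the 19 libraries of the rule and 1340 in replicate 8. It reached the minimum mean of 1 CPM only through replicate 8, at 46.9 CPM, and averaged 0.184 CPM in the others. Its score was 0.00424, with means of 0.219 CPM in unexercised and 0.0477 CPM in exercised 9-week libraries. At so few counts these differences are poorly measured, and it is left out of the folds. The filter for low counts left it out of the tests. Over the remaining 59 members, mean CPM was 1.05 to 3.20 times higher in unexercised than in exercised 9-week libraries, with a median of 1.29, and 9 members reached 2-fold. Between the runs, mean CPM was 1.07 to 17.9 times higher in the second than in the first, with a median of 1.58, and 22 members reached 2-fold. The fold between the runs exceeded that of exercise in 50 of 59 members. Both folds were at least 2 in 9 members, those of rank 1, 2, 3, 7, 8, 14, 18, 34 and 49.

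Nfu_g_1_011166, the member of rank 1, had its lowest levels in the first run and its highest mean in the second. Its CPM was 33.9, 23.9, 23.4, 22.6 and 36.3 in the unexercised 9-week libraries and 9.48, 9.64, 7.38, 7.73 and 11.9 in the exercised ones. At 27 weeks it was 2.57, 3.00, 2.51, 2.48 and 4.08 in the first run and 37.3, 33.9, 39.5 and 47.3 in the second. Every library of the first run lay below every exercised 9-week library, while the second run overlapped the unexercised libraries. Replicate 8, with 37.5 CPM, lay within the second run. The mean of the second run was 13.5 times that of the first, against a ratio of 3.04 between unexercised and exercised 9-week libraries.

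Nfu_g_1_010177, of rank 2, had the widest difference between the runs. Its CPM was 25.5, 26.2, 27.2, 28.5 and 46.6 in unexercised and 11, 13.7, 8.71, 11.3 and 12.4 in exercised 9-week libraries. In the first run it was 2.66, 2.71, 2.80, 4.44 and 4.39, and in the second 53.4, 50.2, 73.4 and 66.1. Here the first run lay below all 9-week libraries and the second run above all of them, with replicate 8 at 46.1 CPM, just under the highest unexercised library. The unexercised mean of 30.8 ± 8.91 CPM (SD, n = 5) was 2.69 times the exercised mean of 11.4 ± 1.86 CPM (n = 5). The mean of the second run, 60.8 ± 10.8 CPM (n = 4), was 17.9 times that of the first, 3.40 ± 0.927 CPM (n = 5).

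Nfu_g_1_003740, of rank 6, was more abundant and had the same order of means. Its CPM was 151, 131, 114, 106 and 120 in unexercised and 75.2, 73.6, 61.1, 67.0 and 53.0 in exercised 9-week libraries. In the first run it was 20.2, 15.2, 12.9, 12.2 and 17.8, and in the second 189, 171, 162 and 162. The first run lay below all other libraries by a wide margin, the second run above all, and replicate 8, with 110 CPM, among the unexercised 9-week libraries. The member of rank 3 had the same order of means, with 37.5 and 15.0 CPM in unexercised and exercised 9-week libraries, 6.41 CPM in the first run and 59.3 CPM in the second. Its second run, from 48.0 CPM, overlapped the unexercised libraries, which reached 50.3 CPM, and replicate 8 lay within the second run at 68.9 CPM. The member of rank 25 differed in that its second run, at 72.7 ± 8.82 CPM (SD, n = 4), averaged below the unexercised 9-week libraries, at 85.4 ± 10.8 CPM (n = 5), with 17.1 ± 1.82 CPM (n = 5) in the first run. These 5 members, of rank 1, 2, 3, 6 and 25, were those with a difference of at least 4-fold between the runs.

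**Figure D2:**
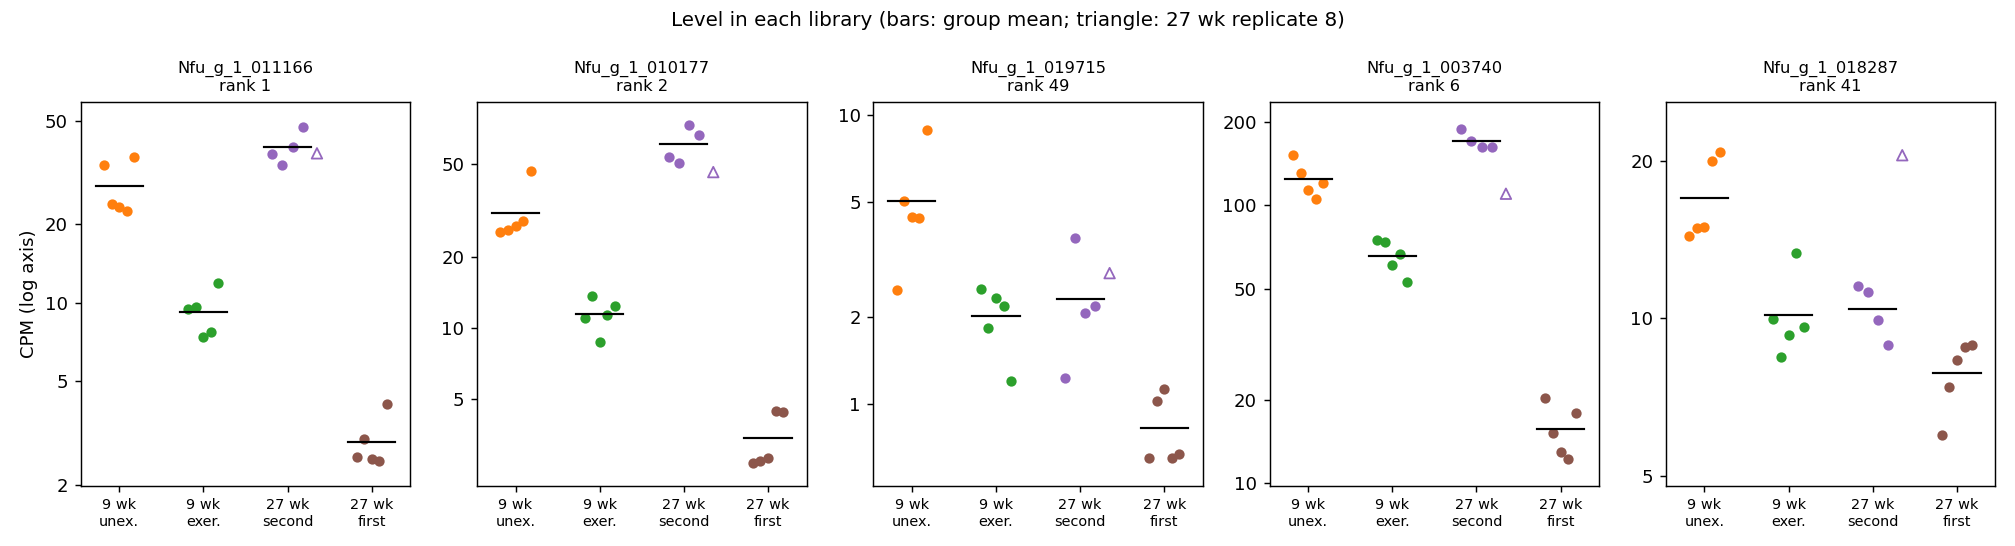
CPM on a log axis in each library for the 5 members named by a fixed rule, with a point per library, a bar at each group mean and a triangle for replicate 8 of the 27-week group, which is in no mean. In the members of rank 1, 2 and 6 the first run is the lowest group and lies below every 9-week library, while in the member of rank 41 the second run lies among the exercised 9-week libraries.

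The order of the 4 means was not the same in all members. The rule asked for unexercised above exercised libraries and the second run above the first, and the means of all members were so. The lowest mean could thus only be that of the first run or the exercised libraries. The highest could only be that of the second run or the unexercised libraries. No share over all genes was computed, so nothing is read from the counts of orders. The first run had the lowest mean in 51 of 60 members, and the highest mean was that of the second run in 38 and that of unexercised 9-week libraries in 22. The full order of first run, exercised 9 weeks, unexercised 9 weeks and second run held in 29 members, and the order with the last pair exchanged in 18. The remaining 13 had other orders. Among these was the member of rank 8, with 35.6 ± 5.18 CPM (SD, n = 5) in exercised 9-week libraries and 38.7 ± 21.4 CPM (n = 5) in the first run. Its libraries of the first run held 20.3, 26.6, 33.9, 75 and 37.8 CPM, so that replicate 4 lay well above the other 4 and the group spanned the whole range of the exercised 9-week libraries, 27.4 to 41.3 CPM. The second run held 94.8, 109, 146 and 115 CPM, within the 77.9 to 145 CPM of unexercised 9-week libraries but for the highest, and replicate 8 held 675 CPM, the highest value of this member. The member of rank 45 was at the other extreme of exercise, with 88.4 ± 4.06 CPM (SD, n = 5) in unexercised and 83.9 ± 2.2 CPM (n = 5) in exercised 9-week libraries, a ratio of 1.05. At 27 weeks it held 73.9 ± 1.93 CPM (n = 4) in the second run and 55.3 ± 3.61 CPM (n = 5) in the first, so that both runs lay below both 9-week groups.

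**Figure D3:**
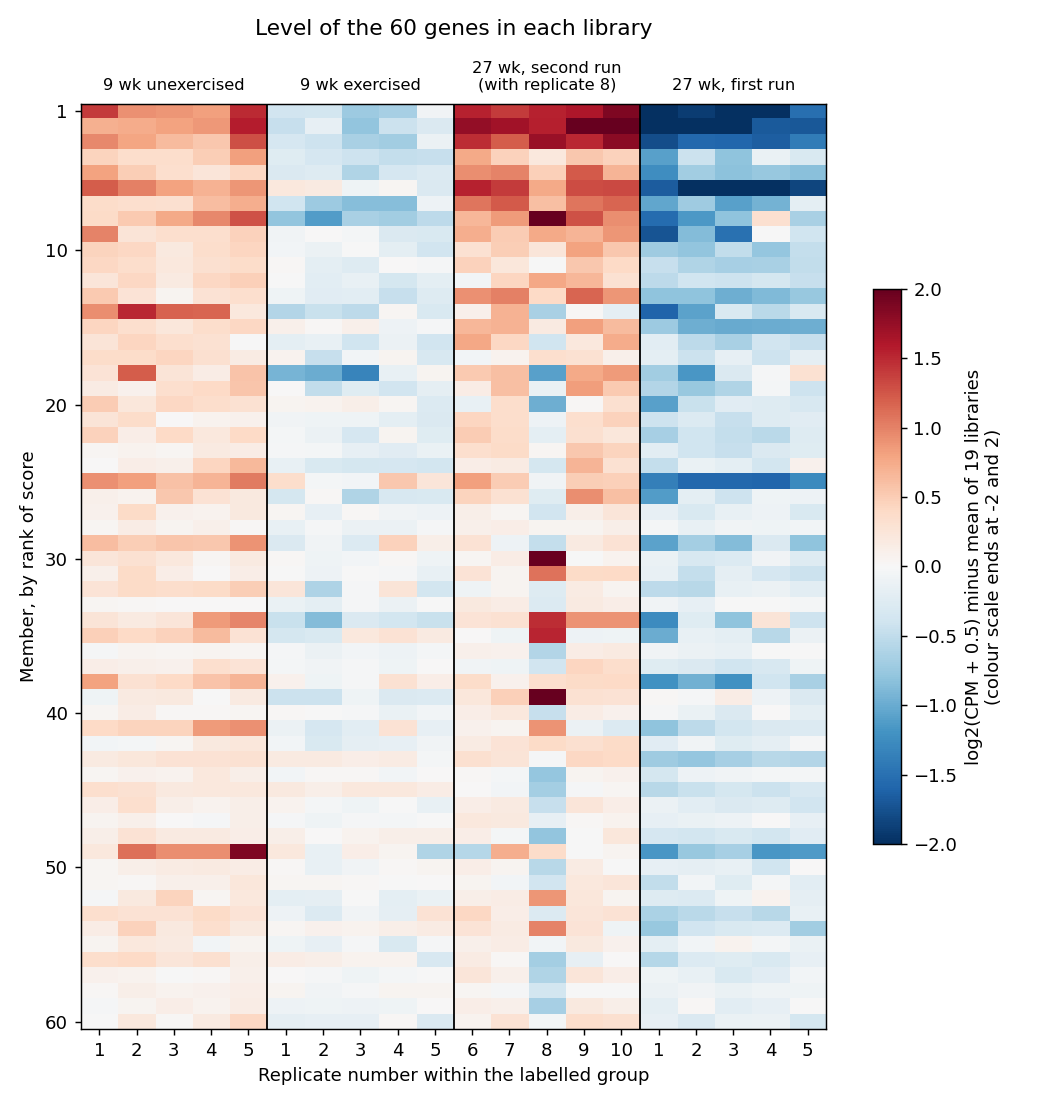
Level of each of the 60 members (rows, rank 1 at the top) in each of the 20 libraries (columns, by group and replicate number), as log2(CPM + 0.5) minus the mean of the gene over the 19 libraries of the rule, with colours that end at -2 and 2. The colours are strongest in the first rows and in the first run, and pale towards rank 60, while replicate 8, which is not in the mean, has rows well above and rows below its neighbours.

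In the edgeR test of exercise at 9 weeks, 13 of the 59 members tested were lower in exercised libraries at an adjusted p below 0.05 (Benjamini-Hochberg over all genes), against 0.0784% of all 19123 genes tested, and the median log2 fold change was -0.39. No member was higher, against 0.0209% of genes. The 13 were all among the 15 members of highest rank. The rule picked the members by this difference in these libraries, so the count restates the choice and nothing is read from it. Between the runs, 55 of 59 members were higher in the second run in the edgeR test, against 7.38% of the 19779 genes tested, and 0 were lower, against 7.14%, which restates the choice in the same way.

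The remaining comparisons set 27 against 9 weeks, in pairings that the rule did not use directly. An edgeR model with 4 means (unexercised, exercised, first run and second run, without replicate 8) was fitted to 19779 genes. It gave 3 comparisons, which use the libraries of the rule in other pairings. The first set the mean of both runs against the mean of both 9-week groups, at equal weight. Neither difference used by the rule enters its arithmetic, but an exercise difference can still enter through the labels. The others set 1 run against 1 of the 9-week groups. Each also holds part of the differences used by the rule, so their values are not independent of it. The rule picked genes by the levels of all 4 groups, so the shares over all genes set no expected level for these counts. All 27-week libraries are labelled as exercised, and only the exercised 9-week libraries share that label. Age and exercise are thus partly mixed at equal weight. By the labels, both differ between the second run and the unexercised 9-week libraries. The members were picked as lower in exercised libraries, so falls at equal weight can follow from the choice and do not measure age alone.

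At equal weight, 23 of 59 members fell from 9 to 27 weeks (39%), against 10.5% of all genes, and 0 rose, against 11.3%. No member had an unadjusted p below 0.05 in the higher direction in edgeR, and limma and DESeq2 also called 0 higher. The median log2 fold change was -0.13 in the members and -0.01 in all genes, and the median size of the 23 falls was 0.38 on the log2 scale. The falls comprised 8 of 20 members of rank 1 to 20 and 15 of 39 of rank 21 to 60. Rank was set by the same libraries, so nothing is read from this split. Leaving out 1 library at a time gave 20 to 28 falls.

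Nfu_g_1_019715, of rank 49, had the largest fall at equal weight among members that passed. It is a weakly expressed member, with CPM of 2.47, 5.02, 4.42, 4.40 and 8.86 in unexercised and 2.49, 1.84, 2.33, 2.19 and 1.2 in exercised 9-week libraries. At 27 weeks it had 0.654, 1.03, 1.13, 0.653 and 0.672 CPM in the first run and 1.23, 3.76, 2.06 and 2.18 CPM in the second. All of the first run lay below all 9-week libraries, and the second run overlapped both 9-week groups. The log2 fold change was -1.23 with an SE of 0.24 and an adjusted p of 0.00182 in edgeR (9 libraries against 10). Of the members of rank 1 and 2, Nfu_g_1_011166 also fell by 0.61 on the log2 scale (SE 0.13, adjusted p = 0.00252 in edgeR). Nfu_g_1_010177 fell by 0.42 (SE 0.14, adjusted p = 0.0418 in edgeR) and did not pass in 14 of 24 alternatives, where the adjusted p reached 0.0868.

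In the pair of groups with low levels, the first run against exercised 9-week libraries, 30 of 59 members fell (50.8%), against 9.91% of all genes, and 0 rose, against 10.1%. No member had an unadjusted p below 0.05 in the higher direction in edgeR, and limma and DESeq2 called 0 higher. The median log2 fold change was -0.25 in the members and -0.01 in all genes, and 54 of 59 members had a negative value. The falls were at least 2-fold in 6 members. All 5 libraries of the first run lay below all 5 exercised 9-week libraries in 21 of 60 members, against 5.69% of the 18153 genes. The rule asked for a first run below the second, so these falls can follow in part from the choice. Leaving out 1 library at a time gave 25 to 32 falls.

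Nfu_g_1_003740 had the largest of these falls, from 66.0 ± 9.19 CPM (SD, n = 5) in exercised 9-week libraries to 15.7 ± 3.35 CPM (n = 5) in the first run. This was a log2 fold change of -2.11 with an SE of 0.14 (adjusted p = 3.64e-08 in edgeR, lower in 5 of 5 libraries). Nfu_g_1_010177 fell by 1.79 (SE 0.21, edgeR adjusted p = 2.05e-05) and Nfu_g_1_011166 by 1.69 on the log2 scale (SE 0.18, edgeR adjusted p = 1.30e-05). Both genes were lower in 5 of 5 libraries. Nfu_g_1_019715 fell by 1.30 (SE 0.35, adjusted p = 0.0128 in edgeR), while Nfu_g_1_018287 had a log2 fold change of -0.40 that did not pass (SE 0.15, adjusted p = 0.0624 in edgeR).

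In the pair of groups with high levels, the second run against unexercised 9-week libraries, the members split. Age and exercise both differ in this pair by the labels, so its changes do not measure age alone. Of 59 members, 5 rose (8.47%), against 0.956% of all genes, and 2 fell (3.39%), against 0.652%. The 5 were those of rank 2, 3, 13, 15 and 23, and each of them also fell in the low pair. The 2 that fell were those of rank 41 and 45, and that of rank 45 also fell in the low pair. The member of rank 13, one of those that rose, averaged 104 ± 9.62 CPM (SD, n = 4) in the second run and 64.4 ± 7.33 CPM (n = 5) in unexercised 9-week libraries. The median log2 fold change was 0.03 in the members and 0.00 in all genes (-0.0015 before rounding), with 34 members above and 25 below 0. Without 27-week replicate 9 the median of the members was -0.01. All 4 libraries of the second run lay above all 5 unexercised 9-week libraries in 10 of 60 members, against 6.59% of the 18153 genes. In 5 of 60 members they lay below all 5, for which no share over all genes was computed, so nothing is read from that count.

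Nfu_g_1_010177 had the largest rise among members that passed in this pair, from 30.8 CPM in unexercised 9-week libraries to 60.8 CPM in the second run, with all 4 libraries higher. The log2 fold change was 0.95 with an SE of 0.19, and its adjusted p in edgeR was 0.0182. The call was lost without unexercised replicate 1 or 4 or without 27-week replicate 9, at edgeR adjusted p of 0.0523, 0.0529 and 0.0864. Nfu_g_1_011166 (log2 fold change 0.47, adjusted p = 0.168 in edgeR) and Nfu_g_1_003740 (0.43, adjusted p = 0.102) did not pass. Nfu_g_1_018287, of rank 41, had the largest fall among members that passed, while Nfu_g_1_019715 had a log2 fold change of -1.15 that did not pass (adjusted p = 0.0857 in edgeR). The CPM of Nfu_g_1_018287 was 14.4, 14.9, 15.0, 20.0 and 20.8 in unexercised 9-week libraries and 11.5, 11.2, 9.94 and 8.89 in the second run, so the groups did not overlap. It stood at 9.97, 8.44, 9.30, 13.3 and 9.64 CPM in exercised 9-week libraries and at 5.98, 7.40, 8.31, 8.79 and 8.89 CPM in the first run. The fall between the high groups was -0.74 on the log2 scale (SE 0.15, edgeR adjusted p = 0.0216). The call was lost with replicate 8 in the second run, at 20.5 CPM in that library (log2 fold change -0.31, edgeR adjusted p = 0.430). It was also lost without unexercised replicate 4 or 5 or 27-week replicate 7, 9 or 10 (edgeR adjusted p from 0.0521 to 0.0788).

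**Figure D4:**
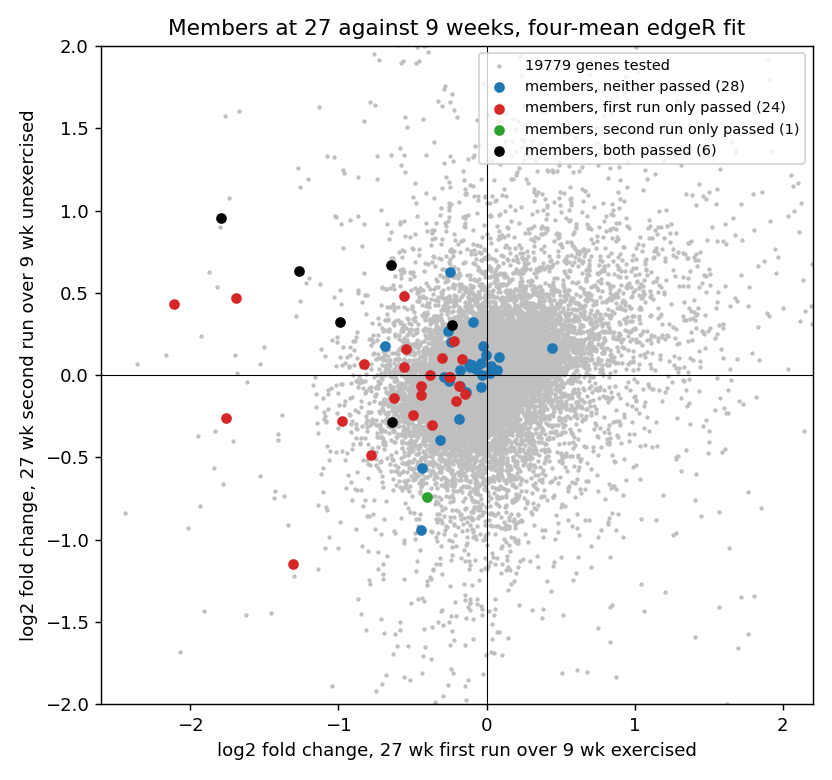
Log2 fold changes of the first run over exercised 9-week libraries (x axis) and of the second run over unexercised 9-week libraries (y axis) from the edgeR fit with 4 means, for 19779 genes (grey, 153 of them outside the axes) and 59 members coloured by which test passed. Of the 59 members, 54 lie left of 0, with 24 that passed only on the x axis, 6 that passed on both, 1 that passed only on the y axis and 28 that passed on neither.

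Set side by side by the sign of the log2 fold change alone, 29 of 59 members were below 0 in the low pair and above 0 in the high pair (18.9% of all genes tested), and 5 of the 29 passed in both. Another 25 were below 0 in both pairs (32.9% of all genes) and 5 above 0 in both (30.8%). The rule asked for a second run above the first, so the count of 29 can follow in part from the choice. The shares over all genes set no expected level for these counts, and nothing is concluded from the contrast with them. Whether the differences of a member in the 2 pairs differ from each other was not tested. It is the same question as whether the run difference exceeds the exercise difference, which the rule used.

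By the labels alone, all 10 libraries of 27 weeks formed 1 group, which was tested against each 9-week group. The rule chose genes whose levels split the 27-week group, which can widen its spread and make calls less likely. Its effect on these counts was not tested. In the comparison with unexercised 9-week libraries age and exercise both differ, and the rule asked for high levels in those libraries. Against exercised 9-week libraries 1 of 59 members fell in edgeR, that of rank 45, against 0.998% of all genes, and 0 rose, against 1.16%, with 4 higher at an unadjusted p below 0.05 and 0 called higher by limma or DESeq2. That member averaged 83.9 ± 2.2 CPM (SD, n = 5) in exercised 9-week and 61.8 ± 11.1 CPM (n = 10) in 27-week libraries, and the call was lost without any 1 of the exercised replicates 1 to 5 or of the 27-week replicates 1 to 5. Against unexercised 9-week libraries 5 members fell, those of rank 14, 29, 32, 45 and 56 (8.47%, against 1.79% of all genes). None rose, against 2.57% of all genes, with 0 higher at an unadjusted p below 0.05 in edgeR and 0 called higher by limma or DESeq2. The 5 became 11 without replicate 8, and 0, 1, 2, 1 and 3 without unexercised replicates 1 to 5. Without 27-week replicate 3 there were 3, and without replicate 5 there were 2. Within the 27-week group the levels of Nfu_g_1_010177 had an SD of 29.7 CPM around a mean of 30.6 CPM (n = 10).

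Replicate 8 of the 27-week group was in neither gap, although it counted in the mean of 1 CPM that a gene had to reach. The member of rank 39, which reached it only through this library, is left out of the following counts. On raw totals, 32 of the other 59 members lay above the highest library of the first run in replicate 8 (54.2%), against 13.1% of the 18153 genes and 29.8% of the 1151 genes with a gap above 0 at 27 weeks. In 28 members it was nearer the mean of the second run than of the first (47.5%), against 56.6% of all genes and 25.5% of those with a gap. In 16 it was at or above the lowest library of the second run (27.1%), against 28% of all genes and 20.2% of those with a gap.

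These counts changed with the scaling of the totals, and so did the shares over all genes. The median of all genes was shifted by -0.46 on the log2 scale in replicate 8 on raw totals and by 0.02 with TMM-scaled totals. After TMM scaling, 51 of 59 members lay above the first run (86.4%), against 35.4% of all genes and 73.6% of the 1358 genes with a gap above 0 at that scaling. The same number were nearer the second run, against 59.3% of all genes and 70.8% of those with a gap, and 42 were at or above its lowest library (71.2%), against 68% and 62.6%. On raw totals the list was split by rank, with 15 of 20 members of rank 1 to 20 nearer the second run and 13 of 39 of rank 21 to 60. Another 13 of these 39 lay below all of the first run (33.3%), against 67.4% of all genes and 44.2% of those with a gap. After TMM scaling the counts nearer the second run were 18 of 20 and 33 of 39. At that scaling 0 members lay below all of the first run, against 30% of all genes and 4.42% of those with a gap. Relative to the median of all genes, the median of the 60 members in replicate 8 lay 0.41 higher on the log2 scale on raw totals and 0.42 higher on TMM-scaled totals. These medians include the member of rank 39, which is in the list only through this library. This is 1 library that stands apart from the rest, so no test was made.

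The library that was highest or lowest within a group differed between members, and no library was extreme in one direction in more than 24 of 60. Among unexercised 9-week libraries, replicate 5 was the highest in 23 of 60 members (38.3%), against 17.2% of all genes. Among exercised ones replicate 1 was the highest in 20 (33.3%, against 21.4%). In the first run, replicate 1 was the lowest in 24 (40%, against 26.2%), and replicates 4 and 5 were the highest in 22 and 21 (36.7% and 35.0%, against 25.9% and 15.7%). In the second run without replicate 8, replicate 9 was the highest in 23 (38.3%, against 22.4%) and replicate 7 the lowest in 21 (35.0%, against 20.0%). Only counts of at least 20 members are given. Members are not replicates of a condition, so these are counts of genes that share libraries. The gaps of the rule were set by the lowest or highest library of each group. Nothing is therefore read from these counts or from the shares over all genes.

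The mean of the members over the 20 libraries ran from 1.21 to 338 CPM, with a median of 31.0 CPM against 20.5 CPM for the 18153 genes. Per kilobase of gene length, the median was 15.9 CPM in the members and 8.38 CPM in all genes. The rule used levels, so nothing is read from these contrasts of level with all genes. Lengths, implied by the ratio of deposited counts to RPKM, had a median of 3047 bp and quartiles of 1398 and 4490 bp, against 2765, 1380 and 4790 bp in all genes. The coefficient of variation within a group, for which the rule favours low values, had a median of 8.94% to 10.5% in the members over the 4 sets of libraries and of 10.4% to 11.5% in all genes.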

How the data were processed

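RNA-seq counts of 20 brain libraries were used as the authors deposited them, as whole-number counts per gene. The authors also deposited RPKM values per gene. Per the labels' protocols, the kit was TruSeq RNA Library Preparation Kit v2. Among the tools in the submitters' processing notes are STAR 2.4.1d and featureCounts 1.4.6-p4. The sources used here give no genome build, annotation or strand setting, so reads shared by near-identical, overlapping or antisense genes cannot be told apart. The deposited RPKM were divided by library totals taken in turn down the table, so that 5.00% of values used the total of their own library. They served only for gene length. Replicate pairs differed beyond sampling noise (chi-square per degree of freedom of at least 7.57).

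The members and all comparisons were chosen with earlier results of these data known. Genes are named if of rank 1 or 2 or if they had the largest rise or fall among members passing in a comparison of the model with 4 means; other members are given by rank. Tests used edgeR 4.0.16 in R 4.3.3 (filterByExpr, TMM, quasi-likelihood, two-sided, all genes tested). The alternatives were limma 3.58.1, on log2(CPM + 0.5) with TMM-scaled totals, and DESeq2 1.42.0. These tests were also tested on simulated data. Levels are CPM on raw totals.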

Additional observations from a re-analysis of the deposited data

Results flagged for a closer look

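For each named member and for the median level of all 60, the most extreme library of each labelled group (5 or 10 libraries) was compared with the next one, relative to the spread of the group. For the 5 genes named by rule and the median, 2 of 18 comparisons passed a limit that values of 1 normal group pass about 1 time in 20. The members were picked by their levels in these libraries, and the rule split the 27-week group, so that rate does not hold here. Nfu_g_1_010177 had 46.6 CPM in unexercised 9-week replicate 5, against 28.5 CPM in the next library. Nfu_g_1_018287 had 20.5 CPM in replicate 8 of the 27-week group, against 11.5 CPM in the next. Nfu_g_1_018552, added because of its value in replicate 8 and a member only through it, had 46.9 CPM there, against 0.438 CPM in the next, which is not set against that rate. In that library, 600 of the 18153 genes were higher by 4-fold or more than in the remaining libraries, 2 of them members. The part of that library's other differences in these values was not tested.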

How the results depend on the processing

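No paired analysis was possible because replicate numbers only follow the order of listing. None of the log2 fold changes of named genes recomputed here changed sign where it passed its test. The median of the members for the second run against unexercised 9 weeks did, from 0.03 to -0.01 without 27-week replicate 9. All 20 members of highest rank stayed among the 60 whichever library was left out, and 15 with replicate 8 in the second run. Leaving out a library can only keep or widen a gap, so no score could fall. A member could leave the list only when other genes passed it, so staying without 1 library is a weak check. Of all 60, 28 to 57 stayed without 1 library (28 without exercised replicate 5) and 33 with replicate 8 in the second run. In replicate 8, TMM-scaled totals put 52 in place of 29 of all 60 members nearer the second run.

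For exercise at 9 weeks, which the rule used, the 13 members lower became 0 to 11 without 1 library and 35 with DESeq2. They were 6, 4, 0, 5 and 8 without exercised replicates 1 to 5. Without unexercised replicates 1, 2, 4 and 5 they were 8, 3, 6 and 6. These counts restate the choice as the 13 do, and nothing is read from them. For age among exercised fish, the 1 member lower became 0 to 1 without 1 library and 0 without a filter. For 27 weeks against unexercised 9 weeks, the 5 members lower became 0 to 11 without 1 library and 12 with DESeq2. Without a filter, when all 60 members were tested, 1 member in place of 0 was higher at equal weight and in the first run. For the second run against unexercised 9 weeks, the 5 members higher became 1 to 6 without 1 library (3 without unexercised replicate 1 or 4, 1 without 27-week replicate 9) and 8 with DESeq2. The 2 lower became 1 to 3, 7 with DESeq2 and 4 with replicate 8 in the second run. The falls at equal weight and in the first run stayed within 1.5 times under all alternatives. For none of these shifts was the cause tested. Apart from the member of rank 39, which has fewer, members near 1 CPM rest on few counts, down to 2 in a library.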
